A study of Drosophila melanogaster with 3 samples.

Results

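The 180 genes described here are the odorant receptor (Or), gustatory receptor (Gr) and ionotropic receptor (Ir) genes of Drosophila melanogaster. They were chosen by symbol: every protein-coding gene of the gene models whose name is Or, Gr or Ir followed by a digit, together with Orco, which gave 180 of the 13968 protein-coding genes on the chromosome arms. Each family has 60 genes, with Orco counted among the odorant receptors. Another 7 such symbols belong to pseudogenes and were left out. The study mapped BtbVII, a BTB-domain protein, by chromatin immunoprecipitation and sequencing in 1 group of 3 samples that the labels number as biological replicates, without saying whether they came from separate collections of embryos. The flies carried BtbVII fused at the C terminus to eGFP, in a strain the labels call BtbVII-GFP, and an anti-GFP antibody was used. The material was whole embryos of mixed sex, 0 to 24 h old, so all tissues and a day of development are pooled. No second genotype or treatment is part of the design, so receptor genes are set beside all coding genes within the same lists and the values carry no test.

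Insects smell and taste with receptor proteins that sit in the dendrites of sensory neurons. Odorant receptors pair with the co-receptor Orco to form ion channels, gustatory receptors detect sugars, bitter compounds and carbon dioxide, and ionotropic receptors are relatives of ionotropic glutamate receptors that detect acids, amines, salts, temperature and humidity, many of them with a co-receptor such as Ir8a, Ir25a or Ir76b. Each neuron usually uses very few of these genes, and in the embryo the larval sense organs that use them form late. Receptor neurons are thus a small part of a whole embryo, and binding in few cells cannot be told apart from weak binding in many cells in these lists.

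Most receptor genes had no BtbVII region at their start. The pooled list of the 3 replicates holds 30000 regions, of which the 5219 of highest signal form the set that passed the authors' reproducibility threshold; these are called strong and all 30000 are called candidates. Of the 180 receptor genes, 30 had a candidate summit within 1000 bp of an annotated transcription start site (TSS), which is 16.7% (exact 95% interval 11.5 to 22.9), against 53.1% of all protein-coding genes. A strong summit lay within 1000 bp of 7 receptor genes, or 3.89% (1.58 to 7.85), against 22.3% of all protein-coding genes. Of the 30 with a candidate, 7 had a strong one (23.3%, 9.93 to 42.3), against 42.1% of the 7413 protein-coding genes with a candidate. The median pooled signal of the best candidate was 69.3 over those 30 genes and 150.2 over the 7413. Asking further for a region at the summit in both of a pair of replicates left 15 receptor genes with a candidate without replicate 1, 11 without replicate 2 and 13 without replicate 3. The median best signal of these receptor genes was then 147.3, 212.1 and 206.2, in the same order. The median of 69.3 thus rests on candidates that lack a region in 1 or more replicates. Neither the median nor the share with a candidate was computed over all coding genes under these requirements. The intervals cover counting error over genes only, and neighbouring genes are not independent.

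Strong summits in receptor windows seldom belonged to the receptor by position. A summit was given to a receptor when no TSS of another annotated gene was nearer. By that rule 1 receptor gene, Orco, kept its strong summit (0.556%, 0.0141 to 3.06), against 16.6% of all protein-coding genes. For the other 6 receptor genes, every strong summit was nearer to a gene outside the families. Of all protein-coding genes with a strong summit in the window, 74.5% had at least 1 that was nearest to their own TSS. With candidates of any signal, 16 receptor genes had a summit nearest to their own TSS (8.89%, 5.17 to 14.0), against 43.7% of all protein-coding genes. Setting replicate 2 or replicate 3 aside left no receptor gene with a strong summit of its own. A strong summit then had to lie in the top 5219 regions of both remaining lists. Without replicate 1, Orco kept its own. The matching share of all coding genes was not computed.

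**Figure D1:**
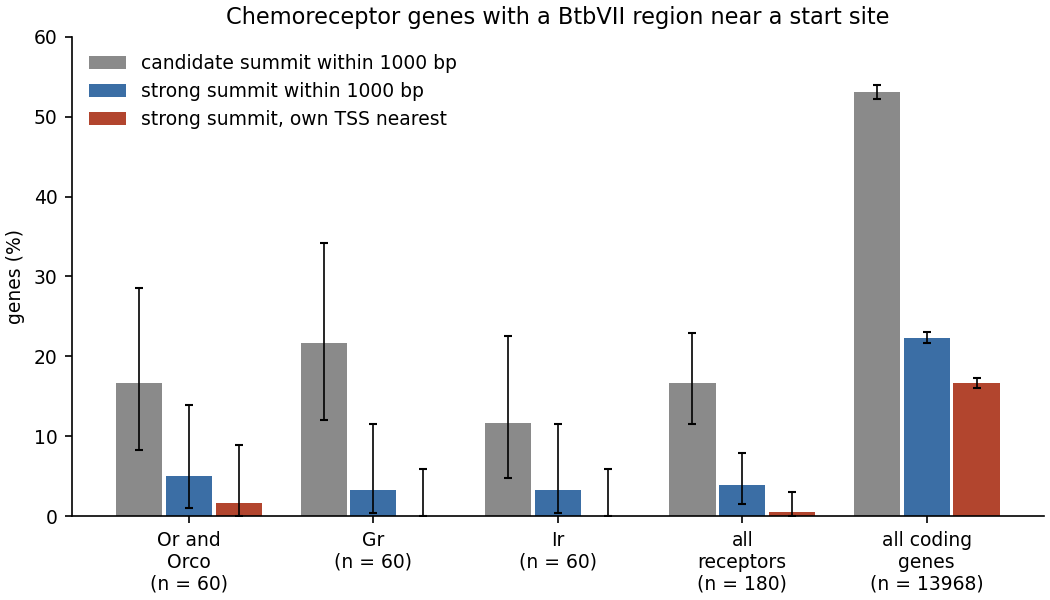
Bars give the percent of genes with a candidate summit (grey), a strong summit (blue) or a strong summit nearest to the gene's own TSS (red) within 1000 bp, with exact 95% intervals, for each receptor family, all 180 receptors and all 13968 protein-coding genes. In each receptor family the 3 bars are lower than those of all coding genes, and the red bar is at 0 for Gr and Ir.

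Counts were low in all 3 families. Among Or genes with Orco, 10 of 60 had a candidate (16.7%, 8.29 to 28.5) and 3 a strong summit (5%, 1.04 to 13.9). Among Gr genes, 13 of 60 had a candidate (21.7%, 12.1 to 34.2) and 2 a strong summit (3.33%, 0.406 to 11.5). Among Ir genes, 7 of 60 had a candidate (11.7%, 4.82 to 22.6) and 2 a strong summit (3.33%, 0.406 to 11.5). No Gr or Ir gene had a strong summit nearest to its own TSS, for which the exact interval reaches up to 5.96% of the 60 genes. The intervals overlap, and differences between families were not tested.

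In relative terms the gap between receptor genes and coding genes at large was widest close to the TSS. A candidate summit lay within 100 bp of a TSS in 2 of 180 receptor genes (1.11%), against 21.2% of the 13945 coding genes on chromosomes that hold regions. Within 500 bp it was 5% of receptor genes and 46.3% of coding genes, within 5000 bp 56.7% of receptor genes and 78.4% of coding genes, and within 20000 bp 96.1% of receptor genes and 96.5% of coding genes. No strong summit lay within 250 bp of a receptor TSS, where 15% of the coding genes had one. Distances run from annotated starts, and gene models without an annotated 5′ UTR were not set apart. The median distance to the nearest candidate summit was 4482.5 bp for receptor genes and 728 bp for all coding genes, and to the nearest strong summit 17698 bp for receptor genes and 7008 bp for all coding genes. Within 20000 bp, 52.8% of receptor genes and 75.3% of coding genes had a strong summit, so for strong summits the difference remained at a distance where candidates were met at a like share.

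**Figure D2:**
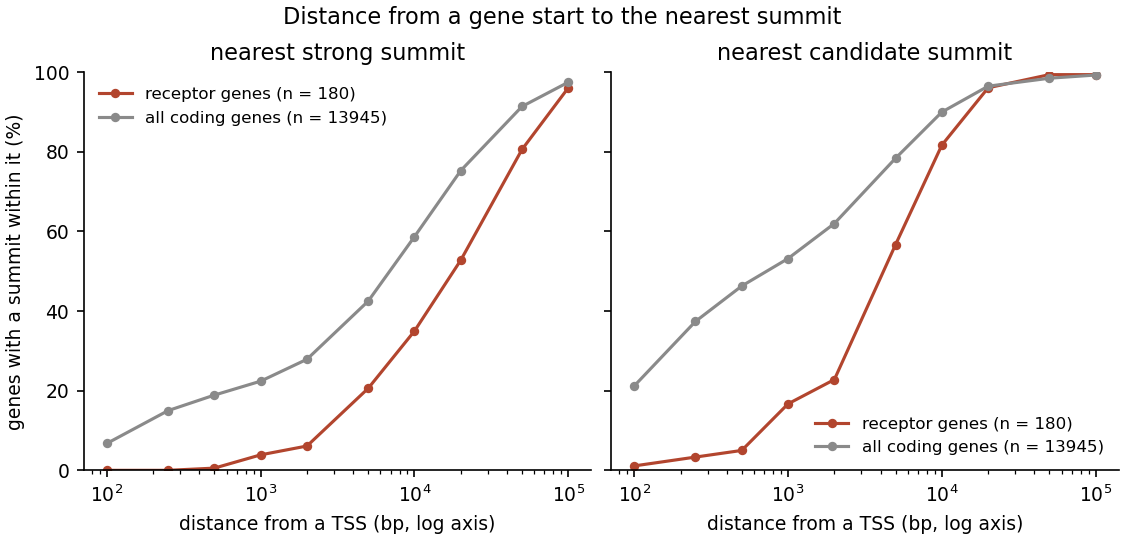
Each curve gives the percent of genes with the nearest strong (left) or candidate (right) summit within a distance of a TSS, on a log axis, for the 180 receptor genes (red) and the 13945 coding genes on chromosomes with regions (grey). The red curves start near 0; at 20000 bp the candidate curves are at 96.1% and 96.5%, and the strong curves at 52.8% and 75.3%.

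Orco, the co-receptor that odorant receptors need to reach the dendrite and signal, was the receptor gene whose strong summit had the receptor's own TSS as its nearest start. Its summit lay in intergenic sequence 819 bp upstream of the distal of 2 annotated Orco TSSs (3R, 5413000 to 5413449). The pooled signal there was 212.1, rank 3721 of 30000, which is in the lower part of the strong range of 172.4 to 3723.7. The next gene, CG14669, starts 1302 bp away on the other side. The region holding this summit had ranks of 5411, 3540 and 3713 and signals of 69.3, 93.3 and 48.2 in replicates 1, 2 and 3, each on its own list's scale, so replicates 2 and 3 placed it among their top 5219 regions and replicate 1 just outside. A second, weak candidate lay 7 bp upstream of the same TSS, with a signal of 55.9 and rank 27760, and it had a region in replicate 1 only. The sequence 50 bp to each side of the strong summit and the 100 bp before the distal TSS are shown because they are the only strong summit with a receptor's TSS as its nearest start and that receptor's promoter. They come from the Release 6 genome sequence; capitals mark matches on either strand to the repeat GAGAGA, to the TATA box sequence TATAAA, to the DNA replication-related element TATCGATA or to the initiator core TCAGT.
Orco strong summit (chr3R:5413175-5413275, plus strand): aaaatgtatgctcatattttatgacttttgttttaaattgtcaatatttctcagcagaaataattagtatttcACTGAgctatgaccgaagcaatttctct
Orco distal promoter (chr3R:5412407-5412506, minus strand): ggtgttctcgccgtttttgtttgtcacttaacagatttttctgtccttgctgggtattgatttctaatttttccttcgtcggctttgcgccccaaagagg

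For 4 further receptor genes outside the Ir family the strong summit lay on the side of a divergent neighbour, a gene that starts upstream and runs the other way. Gr32a, a bitter and pheromone taste receptor, had a summit 725 bp upstream (2L, 11113064 to 11113513, signal 433.2, rank 1008), and it was 228 bp upstream of Idua, a gene named for the lysosomal enzyme iduronidase. Or88a, a receptor for odours that flies themselves give off, had one 618 bp upstream (3R, 14108602 to 14109051, signal 428.0, rank 1036), which was 506 bp upstream of CG12402 and so nearly midway between both starts. Gr64a, a sugar receptor, had one 775 bp upstream (3L, 4025769 to 4026218, signal 337.5, rank 1635), which lay in the 5′ UTR of CG11594, 17 bp downstream of its TSS. Or9a, an odorant receptor, had one 994 bp upstream (X, 10460445 to 10460894, signal 332.2, rank 1676), which was 66 bp upstream of Neb-cGP. The starts of these pairs lie 953, 1124, 758 and 1060 bp apart, in the order given. Summit sequences are shown where the summit lies outside an exon, with the 100 bp before the receptor's and the neighbour's start where a pair is compared.
Gr32a and Idua strong summit (chr2L:11113239-11113339, plus strand): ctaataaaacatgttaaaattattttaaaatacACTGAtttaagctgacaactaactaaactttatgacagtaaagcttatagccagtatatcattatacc
Gr32a promoter (chr2L:11113914-11114013, plus strand): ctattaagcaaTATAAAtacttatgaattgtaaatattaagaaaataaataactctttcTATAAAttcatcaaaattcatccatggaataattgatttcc
Idua promoter (chr2L:11113062-11113161, minus strand): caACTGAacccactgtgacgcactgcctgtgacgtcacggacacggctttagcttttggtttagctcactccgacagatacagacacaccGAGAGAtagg
Or88a and CG12402 strong summit (chr3R:14108777-14108877, plus strand): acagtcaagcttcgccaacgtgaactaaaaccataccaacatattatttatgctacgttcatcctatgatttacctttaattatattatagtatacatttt
Or9a and Neb-cGP strong summit (chrX:10460620-10460720, plus strand): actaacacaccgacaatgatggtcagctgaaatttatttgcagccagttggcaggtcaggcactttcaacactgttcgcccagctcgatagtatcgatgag
Or9a promoter (chrX:10459677-10459776, minus strand): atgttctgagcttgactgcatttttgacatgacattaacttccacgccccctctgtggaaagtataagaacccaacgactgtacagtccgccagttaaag
Gr64a promoter (chr3L:4026669-4026768, plus strand): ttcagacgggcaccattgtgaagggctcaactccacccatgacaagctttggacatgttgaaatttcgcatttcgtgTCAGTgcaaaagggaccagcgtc
CG11594 promoter (chr3L:4026012-4026111, minus strand): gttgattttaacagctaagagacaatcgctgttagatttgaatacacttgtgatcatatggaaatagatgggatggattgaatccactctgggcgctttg

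In these stretches the Gr32a promoter holds TATAAA at 2 places and has a GC content of 20%, while the Idua promoter holds GAGAGA and TCAGT and has 53%. The Gr64a promoter holds TCAGT, and the Or9a and CG11594 promoters hold none of the 4 motifs. The Orco, Gr32a and Or88a summit windows are AT-rich, with 27.7%, 24.8% and 29.7% GC, and the Or9a window has 47.5%, against a mean of 36.4% over the windows of all strong summits.

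The remaining receptor genes with a strong summit were Ir60b, a pharyngeal taste receptor, and Ir60e, both of the Ir20a clade of taste receptors and both on 2R. Ir60b had strong summits at 616 bp upstream (24514844 to 24515293, signal 352.0, rank 1502) and at 410 bp upstream (24515050 to 24515499, signal 198.7, rank 4144). Both were nearest to a start of the divergent gene Letm1, which encodes a mitochondrial inner membrane protein, at 72 and 45 bp. Ir60e had one 853 bp upstream (24531900 to 24532349, signal 206.2, rank 3887), which lay in the 5′ UTR of the divergent gene CG13585, 13 bp downstream of a TSS. All 8 strong summits in receptor windows were upstream of the receptor, at a median of 750 bp; over all coding genes the median distance was 203 bp and 72.5% were upstream.

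**Figure D3:**
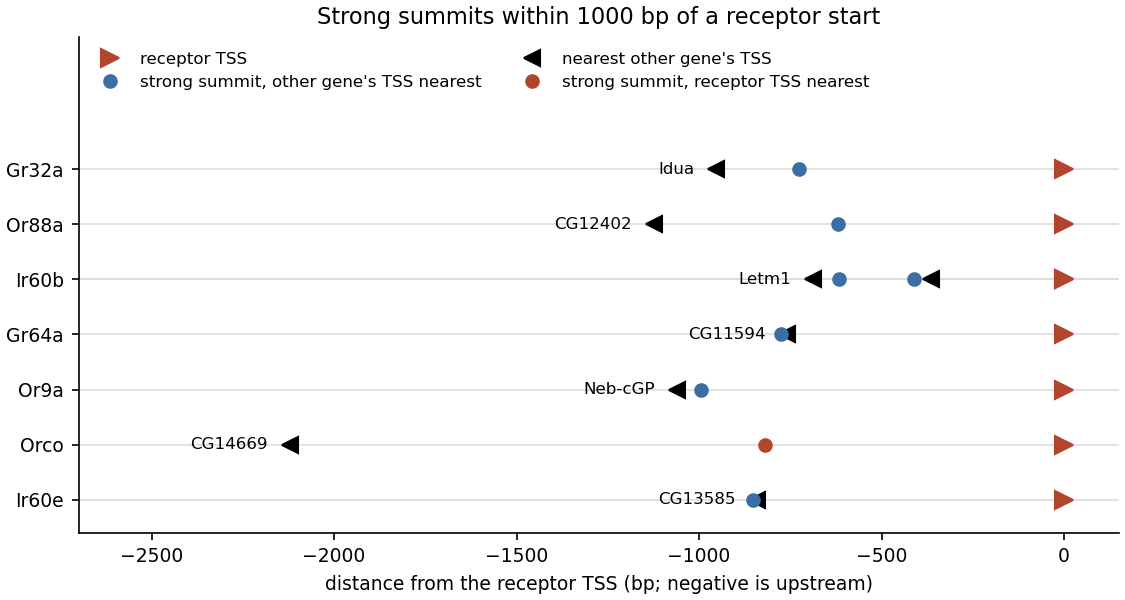
Each row is a receptor gene with its TSS at 0 (red triangle), the strong summits within 1000 bp (circles) and the nearest start of another gene (black triangle), by distance in bp with upstream to the left. In every row but that of Orco the circles are blue, as the neighbour's start is nearer than the receptor's.

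The replicates placed most of these regions alike. At Gr32a the region holding the summit ranked 721, 1643 and 672 in replicates 1, 2 and 3, at Or88a 1717, 810 and 753, at Gr64a 1516, 1955 and 2546, and at Or9a 1427, 2327 and 1773. At Ir60b 1 region in each replicate held both pooled summits, and it ranked 1765, 1571 and 1176. Replicate 1 also had a second region there, with its summit at −412 bp and rank 5454, close to the weaker pooled summit. The replicate 1 rank given for that pooled summit is that of the higher region. The Ir60e region ranked 3364 and 2737 in replicates 1 and 2 but 11760 in replicate 3, so replicate 3 stands apart there. All 8 strong summits lay in a region of every replicate list. By the highest region over each summit, 6 of the 8 lay in the top 5219 regions of all 3 replicates. The exceptions were Orco in replicate 1 and Ir60e in replicate 3. Since the strong set was drawn from these same replicates, part of this support is built in.

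**Figure D4:**
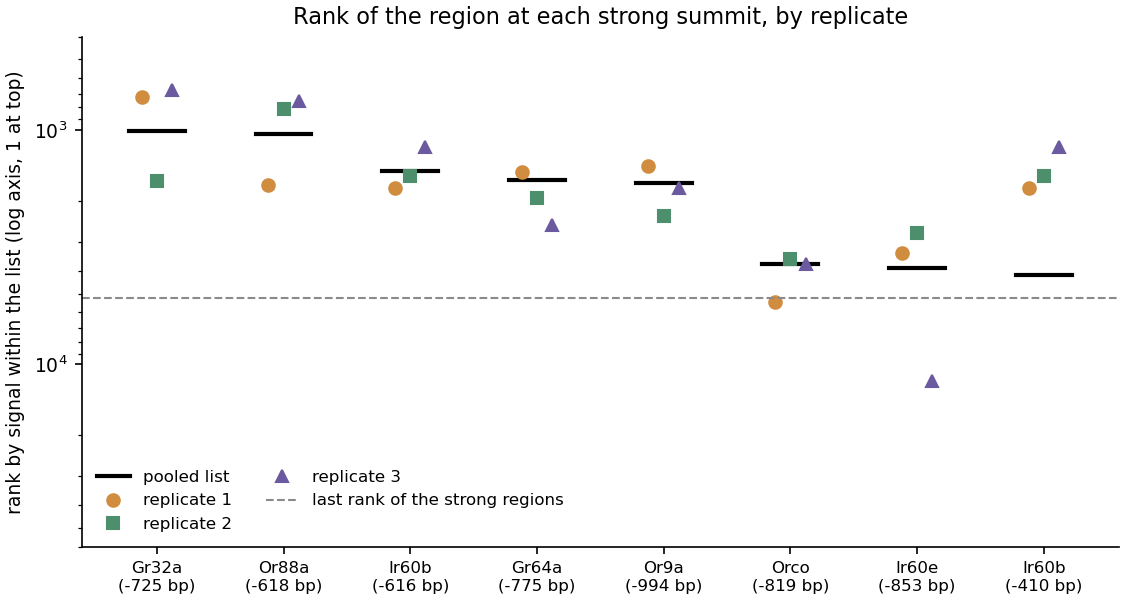
Points give the rank by signal, on a log axis with rank 1 at the top, for replicates 1 to 3. The rank is that of the highest region holding each of the 8 strong summits, and black bars give the pooled rank. Points lie above the dashed line at rank 5219 except for Orco in replicate 1 and Ir60e in replicate 3.

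Each replicate list, taken alone, gave the same low counts. With all 30000 regions of a list, 28, 28 and 30 receptor genes had a summit within 1000 bp in replicates 1, 2 and 3 (15.6%, 15.6% and 16.7%), against 54.2%, 54.8% and 56.7% of all protein-coding genes. With the top 5219 regions of a list, 6, 7 and 6 receptor genes had one (3.33%, 3.89% and 3.33%), against 22.1%, 22.9% and 22% of all protein-coding genes. The receptor genes recurred only in part, and the same split over all coding genes was not computed. With all regions, 12 receptor genes had a summit in every replicate, 12 in 2, 26 in 1 and 130 in none. With the top regions, Gr32a, Gr64a, Ir60b and Or88a had one in every replicate, 3 genes in 2, 1 gene in 1 and 172 in none. Or9a had no replicate 2 summit within 1000 bp. The replicate 2 region holding its pooled summit, at 994 bp upstream, nevertheless ranked 2327.

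Candidates below the strong threshold were weak where the receptor's own start was nearest. The 36 pairs of a receptor gene and a candidate summit came from 33 distinct summits, as Or10a and Gr10a share a TSS and Gr93b and Gr93c share a summit. Of the 33, 17 were nearest to a receptor and 16 to another gene. Apart from that of Orco, the 16 summits nearest to a receptor had signals of 53.3 to 73.7 (median 59.9), with ranks of 18806 to 29544. None of these 16 had a region in all 3 replicates; 5 had one in 2, 10 in 1 and 1 in none. Of all 24781 candidates below the strong threshold, which have a median signal of 77.0, 30.6% had a region in every replicate. The 9 weaker summits nearest to another gene had signals of 56.6 to 152.3 (median 83.8), and 4 of them had a region in every replicate.

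**Figure D5:**
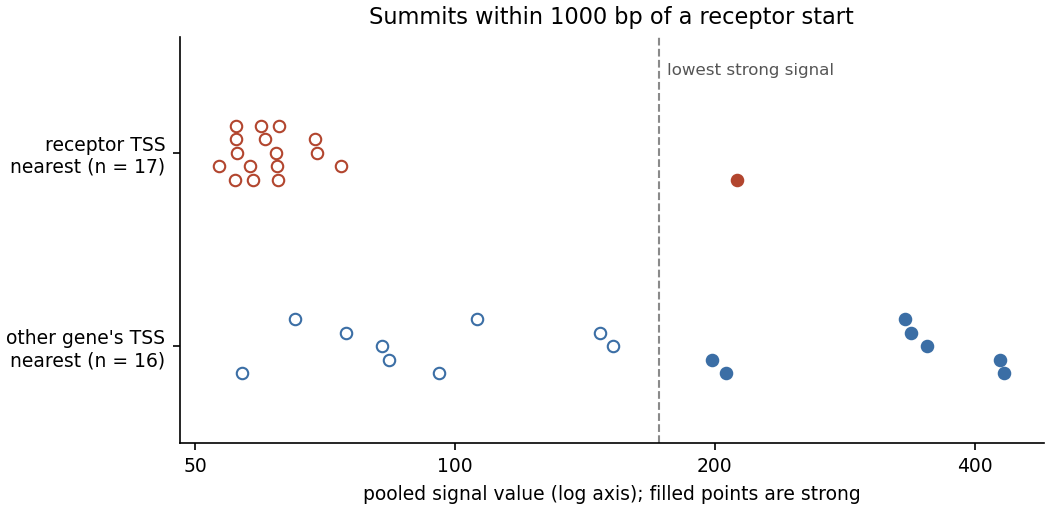
Each point is 1 of the 33 distinct summits within 1000 bp of a receptor TSS, by pooled signal on a log axis, in the upper row where a receptor's TSS is nearest and in the lower row where another gene's is. In the upper row 16 of 17 points lie between 53.3 and 73.7, and the 1 filled point is Orco; the lower row reaches 433.2.

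The leading weaker candidates were again shared with neighbours. Or71a, a receptor of the maxillary palp, had a signal of 147.3 at 965 bp upstream, 13 bp from a start of Plp, a centrosome protein gene. Ir94c had 106.0 at 924 bp upstream, nearest to CG42390, and Or13a, a receptor used by larvae, had 95.9 at 758 bp, nearest to lncRNA:CR45527. Ir48c had 83.8 at 854 bp, only 19 bp upstream of ths, which encodes an FGF ligand. Gr5a, the trehalose receptor, had 82.2 at 787 bp, 147 bp from a start of Tre1, a receptor gene of germ cell migration. Gr97a had 74.7 and Gr59a 65.3, nearest to CG5521 and CG43659. Of the 20 receptor genes with the highest signals, 14 had their best summit nearer to another gene. The other 6 were Orco, Ir68a, Gr93b, Gr21a, Or45b and Or43a. Ir68a, a receptor for moist air, had 73.7 at 125 bp upstream; Gr93b had 69.3 at 550 bp upstream, inside a coding exon of its neighbour Gr93c, which fell in the list of 14 by the same summit. Or45b, a larval receptor, had 62.5 and Or43a had 62.3, each in its own coding exon, 849 and 725 bp downstream of its TSS.

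Among the olfactory co-receptors only Orco had a strong summit. Ir25a, the most widely used ionotropic co-receptor, had a candidate of 62.2 (rank 24012) at 796 bp upstream, in a coding exon of the neighbouring gene tank, and no replicate had a region at that point. Its replicate lists held other low-ranked summits, at −228 bp from a TSS in replicate 1 (rank 16288) and at 194 and −37 bp in replicate 3 (ranks 14347 and 29891), with none in replicate 2. Ir8a and Ir76b had no summit within 1000 bp in the pooled list or in any replicate. Of the pair that forms the carbon dioxide receptor, Gr21a had a candidate of 68.9 (rank 20752) at 238 bp upstream of a TSS and within its annotated 5′ UTR, with regions in replicates 1 and 3 at ranks 29635 and 15789. Gr63a had no pooled candidate, although each replicate list held a low-ranked summit in its window, at ranks 21077, 26951 and 23010 and at −175, −187 and 121 bp from its TSS; the first and second of these were nearer to another gene.

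The counts were also taken by what the receptors detect, to be read beside the 53.1% of all protein-coding genes with a candidate and the 22.3% with a strong summit. Of 26 receptors used in the larval nose, 3 had a candidate and 1, Orco, a strong summit. Of 9 sugar receptors, 2 had a candidate and 1, Gr64a, a strong summit. Of 5 core bitter receptors, 1 had a candidate, which at Gr32a was strong (20%, 0.505 to 71.6). Of 4 pheromone-sensing odorant receptors, 1 had a candidate, which at Or88a was strong (25%, 0.631 to 80.6). Both shares are near that of all coding genes, but the intervals are too wide to place them. Both strong summits were nearer to another gene. Of 17 antennal ionotropic receptors, 2 had a candidate and none a strong summit, and of 5 temperature and humidity receptors, 1 and none. Of 27 protein-coding genes of the Ir20a clade, 3 had a candidate and 2, Ir60b and Ir60e, a strong summit. Most of these lists are too short for a precise share: the exact interval for a strong summit runs to 19.5% for the 17 antennal ionotropic receptors and from 0.281% to 48.2% for the 9 sugar receptors.

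Receptor genes had fewer close neighbours than coding genes at large, and the counts moved with the neighbours. Of the 180, 145 (80.6%) had no start of another coding gene within 1000 bp of a TSS, against 57.2% of all protein-coding genes. Among those without one, 3 of 145 receptor genes had a strong summit in the window (2.07%, 0.429 to 5.93), against 15.3% of such coding genes. Among those with one, 4 of 35 receptor genes had a strong summit (11.4%, 3.2 to 26.7), against 31.6%. A divergent coding gene outside the families started within 2000 bp upstream of 32 receptor genes, and 6 of these 32 had a strong summit (18.8%, 7.21 to 36.4), against 31.4% of all coding genes with such a neighbour. Among receptor genes with no such neighbour, Orco alone had one. The part of the neighbours in the counts was not tested.

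Receptor genes lie scattered over 2L, 2R, 3L, 3R and X, with 31, 46, 35, 43 and 25 genes, and a strong summit was found near 1, 2, 1, 2 and 1 of them. Genes counted in tandem arrays had the nearest start of another receptor gene more than 0 and up to 10000 bp away. By that count, 7 of 77 genes in arrays had a candidate (9.09%) and 2 a strong summit (2.6%). Among the others, 23 of 103 had a candidate (22.3%) and 5 a strong summit (4.85%). Or10a, Gr10a and Gr64b share their only start with another receptor gene and so fell among these 103. Or10a and Gr10a had candidates, so counting all 3 in arrays would bring the candidate shares closer. Of 26 receptor genes nested within the span of another coding gene, 4 had a candidate (15.4%) and none a strong summit. Of the 154 not nested, 26 had a candidate (16.9%) and 7 a strong summit (4.55%). The counts by chromosome, array and nesting were not made over all coding genes, and differences between them were not tested. Near-identical copies could lose reads, so the share of 31-base words that occur once in the genome was counted over 1000 bp to each side of the start. It was at least 90% in 175 of 180 receptor genes (97.2%), against 94.8% of all coding genes, and in all 77 genes of arrays. The exceptions were Or19a and Or19b, a near-identical pair at 25.9%, and Ir10a, Ir93a and Ir41a at 83.9% to 86.2%, none of which had a candidate.

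Receptor promoters seldom held TATCGATA, and the share with TATAAA varied widely between the families. Sequence was not used to choose the genes, and differences in these shares were not tested. The window ran from 250 bp before to 50 bp after the 5′-most TSS, and both strands were searched. The DNA replication-related element TATCGATA, a palindrome found at many housekeeping promoters, was in 1 of 180 receptor promoters (0.556%), that of Gr68a, against 9.36% of all coding promoters and 12.6% of those with a strong summit in the window. The repeat GAGAGA, of the kind bound by the protein Trl, was in 13 receptor promoters (7.22%), among them those of Orco, Gr63a and Gr64e. It was in 12.3% of all coding promoters and 15.4% of those with a strong summit. Among coding promoters without a candidate summit in the window, 10% held GAGAGA and 7% held TATCGATA. The TATA box sequence TATAAA was in 47 of 60 promoters of Or genes with Orco (78.3%), 18 of 60 of Gr genes (30%) and 33 of 60 of Ir genes (55%), against 45.8% of all coding promoters. The usual place of a TATA box was taken as starting 40 to 20 bp before the TSS on the gene's strand. TATAAA was there in 3 Or, 1 Gr and 1 Ir promoters (2.78% of all receptors), against 7.78% of all coding promoters. Most Or promoters with TATAAA on either strand thus had no match at that place on the gene's strand. Positions are from annotated starts, and gene models without an annotated 5′ UTR were not set apart. TCAGT, the core of the initiator, was in 50.6% of receptor and 51.5% of all coding promoters. GC content averaged 39.6% ± 5.85 (SD over 180 receptor promoters) and 39.1% ± 7.74 (SD over all 13968). These are descriptions of sequence, and no match is read as a site.

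Other genes of the chemical senses were set beside the receptors. Of 51 odorant-binding protein genes, which encode secreted carriers of odours, 11 had a candidate and 2 a strong summit (3.92%), Obp99b at 424.2 and Obp83g at 255.8; the next was Obp83cd at 140.7. Of 29 pickpocket genes, which encode sodium channels of taste and touch neurons among other cells, 8 had a candidate and 4 a strong summit (13.8%), with ppk29 at 271.3, ppk27 at 251.8 and ppk11 at 189.9 in the lead. Of 13 other ionotropic glutamate receptor genes, the relatives of the Ir family that act at synapses, 6 had a candidate (46.2%) and none a strong summit; the highest were Nmdar1 at 116.1, GluRIIB at 95.1 and Nmdar2 at 93.9. Of 13 regulators of chemosensory neurons, 7 had a candidate (53.8%) and 4 a strong summit (30.8%), each nearest to its own TSS, with Dll, a limb and antenna homeobox gene, at 375.9, Xbp1 at 375.4 and scrt at 210.1. Of all protein-coding genes, 53.1% had a candidate and 22.3% a strong summit. The exact 95% intervals for a strong summit were 0.479 to 13.5% for odorant-binding proteins and 3.89 to 31.7% for pickpocket genes. They were 0 to 24.7% for the glutamate receptors and 9.09 to 61.4% for the regulators. Differences between lists were not tested.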

How the data were processed

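Lists of bound regions on dm6 were used as the authors deposited them (narrowPeak): 1 list per replicate, 1 for the pooled replicates and the optimal set after an irreproducible discovery rate threshold. Per the deposited README files, the replicate and pooled lists were derived from the replicates' alignments and 1 further alignment; the sources used here name no aligner, caller or threshold. The signal value in the deposited lists is on the caller's own scale and was compared within a list only. The deposited −log10 q-value was not used. Read counts were not used, so depth is unknown. The regions ended within the chromosome lengths of the Release 6 genome sequence, used for motifs and 31-base words. Genes came from Ensembl release 115 (18277 genes without transposable elements on the arms). A summit counted for a gene within 1000 bp of any TSS, and ties in nearest TSS counted as the gene's own. Coordinates are dm6, from 1. Replicate ranks are those of the highest region over the pooled summit.

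Named are all receptors with a strong summit, the 20 with the highest signal, the co-receptors and carbon dioxide receptors, the genes nearest to strong summits and the 3 leading genes of other lists; others were chosen after their values were seen. The members and lists were chosen with earlier results of these data known, and the neighbour, word and TATA position counts were added after seeing the data. Intervals are Clopper-Pearson (scipy 1.17.1, Python 3.11.15). The counting was tested on planted summits.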

Additional observations from a re-analysis of the deposited data

How the results depend on the processing

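A total of 11 alternatives was tried on the counts of receptor genes with a candidate (30), a strong summit (7) and an own strong summit (1), the share of coding genes with a strong summit (22.3%) and the median best signal (69.3). In 30 cases the value stayed within 1.5 times, or for the median within its interval of 62.2 to 95.9, and in 19 it did not. With a 500 bp window the counts were 9, 1 and 0 and the median 57.9, and Ir60b was the gene with a strong summit. Of all coding genes, 18.9% had a strong summit in that window. With 2000 bp, 11 receptor genes had a strong summit and 2 an own one, against 27.8% of coding genes with a strong summit, and with gene bodies 11 had one, against 29.04% of coding genes. With the strong set limited to signals above its median, 5 receptors had a strong summit, none an own one, and 13.1% of coding genes had any strong summit in the window. With the pooled list limited to its top 15000 regions, 10 receptors had a candidate (median 272.2). The share of coding genes with a candidate was not computed for that list. Leaving out each replicate, which requires a region in both others, gave 11 to 15 receptors with a candidate, 0 to 1 with an own strong summit and medians of 147.3 to 212.1; the requirement itself removes weak candidates. Between 5 and 6 receptors then had a strong summit. Ir60e was lost without replicate 1, Orco without replicate 3 and both without replicate 2. Of all coding genes, 15.6%, 15.5% and 17.0% had a strong summit without replicates 1, 2 and 3, against 22.3% in the main count. Their share with a candidate was not computed there. For the other moved values the cause was not tested. Depth is unknown, so absence of a summit is not absence of binding.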

Other observations

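Counting gene bodies with 1000 bp on both sides added 4 receptor genes with a strong summit, giving 11 of 180 (6.11%), against 29% of all protein-coding genes counted the same way. All 4 added summits lay past the 3′ end of the receptor gene. The summit beyond Ir68b had a signal of 939.1 (rank 206), the highest within 1000 bp of any of the 180 gene bodies, and its nearest TSS was that of yps, which encodes an RNA-binding protein. The summit beyond Ir31a had 297.2 and was nearest to RpS27A, a ribosomal protein gene, and the one beyond Or85f had 383.9 and was nearest to CG34117. The summit beyond Gr89a, a core bitter receptor, had 318.4 (rank 1815) and lay 1335 bp downstream of the Gr89a TSS, which was the nearest annotated start. With a 2000 bp window around the TSS, Gr89a was therefore counted beside Orco among the receptors with a strong summit of their own.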
